A study of Mus musculus with 8 samples.

Results

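Fos, Junb, Dusp1, Rgs2, Nr4a1 and Tsc22d3 are described here in single mouse neutrophils from blood or marrow after an injection of PBS or LPS. They are 6 of the 10970 genes of the deposited table of unique molecular identifiers (UMIs), a tag that lets copies of the same captured transcript be counted once. The genes were picked by name after their UMI levels in these 4 groups were known, so their levels and differences below are descriptions, and no p-value is attached to them. All 6 had a row in the table and passed the filter on low counts, Nr4a1 through its counts in blood.

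Mice were C57BL/6J males of 7 to 12 weeks. They received PBS or 0.5 mg/kg LPS, a bacterial outer-membrane component, into the peritoneal cavity, and all 4 groups went through the same negative-selection kit for neutrophils before single cells were picked with a mouth pipette. The groups, PBS-primed and LPS-primed neutrophils of peripheral blood (PB) or of bone marrow (BM), are called PBS blood, LPS blood, PBS marrow and LPS marrow below. The sample titles place PBS at 0 h and LPS at 4 h, while the methods describe a preparation 4 h after either injection. Each group has 2 labelled samples, all in batch 7 of the authors' annotation, with 83 to 92 cells and 3240559 to 8361677 UMIs a sample. Nothing in the labels ties a sample to an animal. Each sits on its own plate, and its spread from its fellow sample may be technical. A further 710 of the 1421 cells belong to batch 6 and carry a group and 1 of 9 plates but no sample. Their plates are given as pooled values, without an SD.

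The first 5 of these genes are immediate early genes, whose transcription is switched on within minutes of a stimulus through pre-existing factors such as SRF and CREB and then shut off again, with short-lived transcripts. Fos and Junb encode partners in the dimeric transcription factor AP-1. Dusp1 encodes a phosphatase that switches off MAP kinases, and Rgs2 a regulator that shortens signalling by heterotrimeric G proteins. Nr4a1 encodes an orphan nuclear receptor. Tsc22d3 encodes GILZ, a leucine zipper protein that glucocorticoids induce through their receptor and that dampens inflammatory signalling, and Dusp1 is a glucocorticoid target too.

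The promoters of the genes are shown because these transcripts are classic targets of CREB, which binds the cAMP response element (CRE). RefSeq (GRCm38.p6) gave 8 entries for the 6 genes, each with 250 bases before and 50 after a start site. The full CRE palindrome TGACGTCA occurred in the Dusp1 entry, and 1.79% of 32851 promoters of the same length held it. Its core TGACG, searched on both strands and lying inside the palindrome as well, occurred 2 times in Fos, 1 time in Junb, 3 times in Dusp1, 2 times in Rgs2 and 4 times in Nr4a1. It also occurred 1 time in 1 of the 3 Tsc22d3 entries, and 20.8% of all promoters held it. In 0 of the 8 entries was there a match to the AP-1 site TGACTCA, the SRF-binding CArG box or the glucocorticoid response element (GNACA, any 3 bases, TGTNC), which 5.20%, 1.63% and 0.475% of all promoters held. Such a match is a string of letters, and its absence says only that the letters are not in this window. The entries with the most matches, and that of Fos, follow on the gene's own strand, with each TGACG, on either strand, in capitals.
Fos, chr12:85473640-85473939, plus strand: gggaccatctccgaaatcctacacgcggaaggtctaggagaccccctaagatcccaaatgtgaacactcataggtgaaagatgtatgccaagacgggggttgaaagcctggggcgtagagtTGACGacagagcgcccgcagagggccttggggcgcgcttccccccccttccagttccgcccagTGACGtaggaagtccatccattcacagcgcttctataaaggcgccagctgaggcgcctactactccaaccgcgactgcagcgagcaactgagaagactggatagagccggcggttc
Dusp1, chr17:26508423-26508722, minus strand: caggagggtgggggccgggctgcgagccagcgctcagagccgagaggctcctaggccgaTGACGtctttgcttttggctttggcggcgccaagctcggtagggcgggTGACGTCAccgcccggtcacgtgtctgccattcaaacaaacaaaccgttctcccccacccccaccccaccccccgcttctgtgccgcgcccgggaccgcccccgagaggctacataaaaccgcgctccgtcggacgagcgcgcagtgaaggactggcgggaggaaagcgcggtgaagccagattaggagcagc
Nr4a1, chr15:101266596-101266895, plus strand: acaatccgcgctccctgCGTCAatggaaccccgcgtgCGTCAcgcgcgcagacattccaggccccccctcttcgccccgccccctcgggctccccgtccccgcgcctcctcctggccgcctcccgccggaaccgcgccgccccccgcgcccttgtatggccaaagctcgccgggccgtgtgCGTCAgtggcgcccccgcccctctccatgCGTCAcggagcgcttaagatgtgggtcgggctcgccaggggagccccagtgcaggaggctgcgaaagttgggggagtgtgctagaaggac

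The cells carried neutrophil transcripts in every sample. The summed level of 10 neutrophil markers, S100a8 and S100a9 among them, was 145637 to 154140 CPM (counts scaled to 1000000 UMIs a sample) in the PBS blood samples, 262136 to 288231 in the LPS blood samples and 304666 to 351976 in the marrow samples. Monocyte, lymphocyte, erythroid and platelet markers were highest in PBS blood neutrophils. Monocyte markers (5 of 8 with a row in the table) summed to 567 to 1026 CPM there, against 260 to 359 CPM in LPS blood and 29.1 to 217 CPM in the marrow samples. Lymphocyte markers (9 of 9) summed to 495 to 614, 2.19 to 2.55 and 13.5 to 42.6 CPM in the same order. Erythroid and platelet markers (4 of 9, with the haemoglobin genes not analysed here) summed to 286 to 423 CPM and 73.9 to 127 CPM in blood and were at 0 in all 4 marrow samples. Markers of other granulocytes (2 of 6) summed to at most 28.3 CPM over the 8 samples, in LPS blood sample 1. Liver transcripts summed to 828 to 2247 CPM in the blood samples of batch 7 and to at most 91.4 CPM elsewhere. Of the 711 cells of batch 7, 64 held over 2000 CPM of markers of other cells, 45 of them PBS blood. Without these cells Fos was 3157 and 3648 CPM in PBS blood and 601 and 603 CPM in LPS blood, Dusp1 was 3227 and 3000 against 1848 and 2025 CPM, and the fitted values without them are given further on. The plates share a set of well barcodes, 68 of 94 being found in all 8 samples.

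The authors' clusters differed between the batches in LPS blood. In batch 7 the samples held 48 and 35 cells of cluster 1, to which nearly all PBS blood neutrophils belonged, beside 42 and 42 cells of cluster 2. In batch 6 only 1 of 186 LPS blood neutrophils was in cluster 1. Of the 4 PBS marrow plates of batch 6, those numbered 31 and 32 stood apart, with 45 and 44 cells, of which 11 and 8 were in cluster 1. The clusters were made by the authors from these transcripts, so levels by cluster are a description as well.

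Fos was highest in resting blood and lowest in the marrow of LPS-treated mice. On the mm9 assembly the gene lies at chr12:86814840-86818223 on the plus strand. Its level was 3649 and 3511 CPM in the PBS blood samples, 598 and 640 CPM in LPS blood, 766 and 252 CPM in PBS marrow and 139 and 137 CPM in LPS marrow. LPS blood was thus 5.79-fold below PBS blood (619 ± 29.4 against 3580 ± 97.3 CPM, SD, n = 2 each) with no overlap, and PBS blood was 7.04-fold above PBS marrow. The LPS blood and PBS marrow samples, neighbours in the order, overlapped. In batch 6 the PBS blood plates stood at 8232 and 8273 CPM and the LPS blood plates at 155 and 279 CPM, a 39.4-fold gap in the same direction. The PBS marrow plates of that batch ranged from 144 to 1423 CPM, with the top 2 values on plates 31 and 32, and the LPS marrow plate had 94.8 CPM. Thinned to 5000 UMIs a cell, 100% and 90.7% of PBS blood neutrophils held a Fos UMI, against 53.8% and 53.5% in LPS blood, 45.8% and 40.2% in PBS marrow and 16.5% and 25% in LPS marrow. Clopper-Pearson intervals (95%, counting error only) were 95.98% to 100% for the highest share and 9.53% to 25.7% for the lowest.

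Junb, the AP-1 partner, was higher in PBS blood than in PBS marrow and did not separate the marrow groups. The gene lies at chr8:87500811-87502617 (mm9, minus strand). Its level was 2074 and 2128 CPM in PBS blood, 1185 and 928 CPM in LPS blood, 393 and 262 CPM in PBS marrow and 354 and 443 CPM in LPS marrow. LPS blood was 1.99-fold below PBS blood in CPM without overlap. The median gene fell by about as much on that scale (log2 fold change -1.02 in the fit given further on). PBS blood was 6.42-fold above PBS marrow, and the marrow groups overlapped. In batch 6 the plates had 1722 and 2928 CPM in PBS blood and 398 and 427 CPM in LPS blood, a 5.77-fold gap, with LPS blood inside the range of PBS marrow. There the tissue gap was 8.64-fold under PBS and 1.78-fold under LPS. The marrow plates again overlapped, with 85.9 to 503 CPM under PBS and 231 CPM under LPS. In the marrow samples a Junb UMI was held by 28.3% to 34.9% of thinned cells under PBS and by 45.1% to 52.2% under LPS, while the level in the summed UMIs overlapped.

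Dusp1 was far higher in LPS blood than in LPS marrow in both batches. The gene lies at chr17:26642535-26645464 (mm9, minus strand). Its level was 2997 and 2701 CPM in PBS blood, 2007 and 1991 CPM in LPS blood, 968 and 517 CPM in PBS marrow and 153 and 112 CPM in LPS marrow. None of the neighbours in this order overlapped. LPS blood was 1.43-fold below PBS blood in CPM, a smaller fall than that of the median gene on that scale. LPS marrow was 5.61-fold below PBS marrow. The gap between the tissues was therefore 3.83-fold under PBS and 15.1-fold under LPS in batch 7, and 11.6-fold and 17.0-fold in batch 6. In batch 6 the blood plates had 6071 and 5956 CPM under PBS and 1655 and 2214 CPM under LPS, a 3.16-fold gap, and LPS marrow had 112 CPM, 4.64-fold below PBS marrow, whose plates had 167 to 1164 CPM. The share of thinned cells with a UMI was 86.0% to 90.1% in LPS blood and 17.4% to 17.6% in LPS marrow.

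Rgs2 was lower in LPS than in PBS blood, and the size of the gap depended on the batch. The gene lies at chr1:145846468-145851291 (mm9, minus strand). Its level was 2032 and 1824 CPM in PBS blood, 757 and 408 CPM in LPS blood, 706 and 454 CPM in PBS marrow and 389 and 347 CPM in LPS marrow. LPS blood was 3.31-fold below PBS blood in batch 7, and its samples overlapped those of PBS marrow. In batch 6 the PBS blood plates had 2268 and 1787 CPM and the LPS blood plates 96.3 and 84.5 CPM, a 22.0-fold gap. There LPS blood was 2.29-fold below the LPS marrow plate, which had 209 CPM, whereas in batch 7 it was 1.58-fold above LPS marrow. The order of blood and marrow under LPS thus turned with the batch for Rgs2, and did not for the other 5 genes.

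Nr4a1 was a blood transcript under either treatment. The gene lies at chr15:101097277-101105223 (mm9, plus strand). Its level was 141 and 76.2 CPM in PBS blood and 299 and 183 CPM in LPS blood. In PBS marrow it was 5.31 CPM, from 37 UMIs of which 94.6% lay in 2 cells, and 0. In both LPS marrow samples it was 0, and 0 of 91 and 0 of 92 cells allow a share of cells with a UMI of up to 3.30% and 3.26% (3 cells of the total; upper Clopper-Pearson bounds were 3.97% and 3.93%). On the LPS marrow plate of batch 6, 10.2% of cells held a UMI, from 10 UMIs in all, and none did after thinning. In blood, a UMI was held by 41.9% to 58.9% of cells under PBS and 58.1% to 84.6% under LPS before thinning, which removed most of them and left 19.8% to 20% and 20.9% to 40.7%. LPS blood was 2.21-fold above PBS blood in batch 7. Without the cells rich in other markers the PBS blood samples had 212 and 86.7 CPM and the LPS blood samples 307 and 196 CPM, and the groups overlapped. They overlapped in batch 6 too, with 262 and 258 CPM under PBS and 173 and 312 CPM under LPS. The marrow plates of batch 6 had 0.875 to 3.18 CPM, apart from plate 31 with 48.3 CPM.

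Tsc22d3 followed the order of Dusp1. The gene lies at chrX:137074067-137135198 (mm9, minus strand). Its level was 680 and 534 CPM in PBS blood, 434 and 390 CPM in LPS blood, 325 and 168 CPM in PBS marrow and 49.9 and 25.05 CPM in LPS marrow. None of the neighbours in this order overlapped. LPS blood was 1.47-fold below PBS blood in CPM, again a smaller fall than that of the median gene. LPS marrow was 6.59-fold below PBS marrow. In batch 6 the gaps were 3.68-fold in blood (1354 and 1061 against 247 and 426 CPM) and 2.04-fold in marrow (133 to 279 against 89.5 CPM). The blood gap was thus the wider in batch 6, and the marrow gap in batch 7. The gap between the tissues was the wider under LPS in batch 7, but in batch 6 it was 6.56-fold under PBS and 3.63-fold under LPS.

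**Figure D1:**
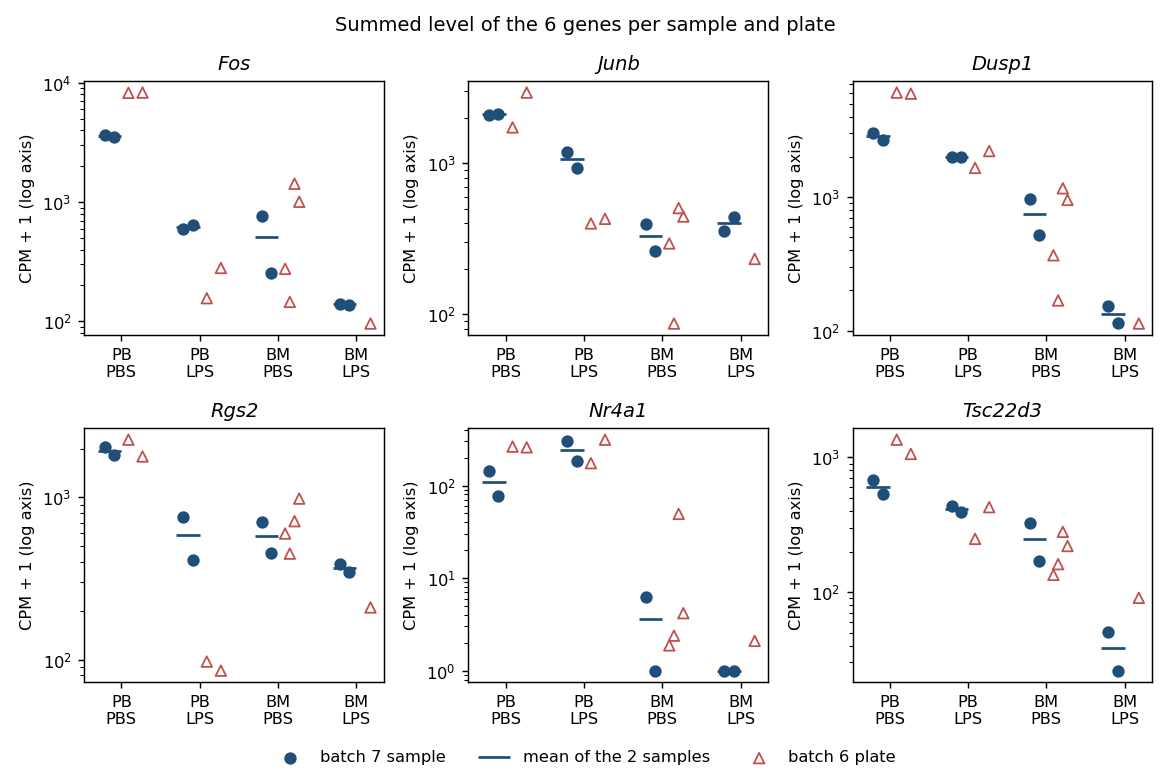
CPM + 1 of the 6 genes on log axes, by group. Filled circles are the 2 samples a group of batch 7 with their mean as a bar, and open triangles are the plates of batch 6. Dusp1 and Tsc22d3 step down from PBS blood to LPS marrow without overlap in batch 7, and Nr4a1 is at 0 in both LPS marrow samples.

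The gene levels within a group were uneven from cell to cell. In LPS blood Fos lay mostly in the cells that the authors put in cluster 1. The median cell of cluster 1 had 607 and 912 CPM of Fos in the 2 samples, and that of cluster 2 had 64.8 and 41.1 CPM. Cluster 1 gave 89.2% and 67.9% of the Fos UMIs of these samples. Rgs2 showed the same, with medians of 1203 and 205 CPM in cluster 1 and 42.6 and 24.3 CPM in cluster 2. Dusp1 did not, with medians of 1148 and 731 CPM in cluster 1 and 1065 and 1622 CPM in cluster 2. For Nr4a1 the medians were 39.9 and 14.2 CPM in cluster 1 and 64.0 and 14.0 CPM in cluster 2. Cluster 2 gave 69.9% and 96.0% of its UMIs and 56.2% and 68.0% of all UMIs, and 2 cells held 54.0% of the Nr4a1 UMIs of sample 2.

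With clusters kept apart, the gap between the batches in LPS blood narrowed for Fos and Rgs2. Summed over the cells of cluster 2, Fos stood at 115 and 257 CPM in batch 7 and at 156 and 279 CPM in batch 6. The cluster 1 cells of the LPS blood samples had 1243 and 1587 CPM, below the 3652 and 3583 CPM of the cluster 1 cells of PBS blood. Rgs2 in cluster 2 stood at 256 and 150 CPM in batch 7 and at 96.8 and 84.5 CPM in batch 6. Junb in cluster 2 stayed apart, with 985 and 771 CPM in batch 7 and 380 and 427 CPM in batch 6. For Dusp1 (2079 and 2407 against 1651 and 2214 CPM), Nr4a1 and Tsc22d3 the gap did not narrow.

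In PBS marrow the cells richest in Fos were looked at for the other genes. The 10 cells with the highest Fos CPM made up 12.05% and 10.87% of the cells and gave 12.8% and 5.60% of all UMIs of the samples. They held 34.5% and 27.3% of the Junb, 25.9% and 37.1% of the Dusp1 and 44.8% and 9.75% of the Rgs2 UMIs. On plates 1 and 2 of batch 6 such cells held 20.2% and 25.5% of the Junb and 13.3% and 20.02% of the Dusp1 UMIs. On plates 31 and 32 they held 79.0% and 69.6% of the Junb and 76.8% and 75.8% of the Dusp1 UMIs, but there 10 cells were 22.2% and 22.7% of the cells and gave 13.0% and 15.03% of all UMIs. Of these 10 cells, 9 and 8 were in cluster 1 on plates 31 and 32, against 2 and 2 in the samples. With the cells of cluster 0 alone, Dusp1 was 768 and 288 CPM in PBS marrow and 153 and 101 CPM in LPS marrow, Tsc22d3 304 and 162 against 48.3 and 25.3 CPM, and Fos 655 and 162 against 131 and 136 CPM. In these cells the marrow samples did not overlap for these 3 genes, though for Fos only by 162 against 136 CPM. The share of all genes without overlap was not counted.

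**Figure D2:**
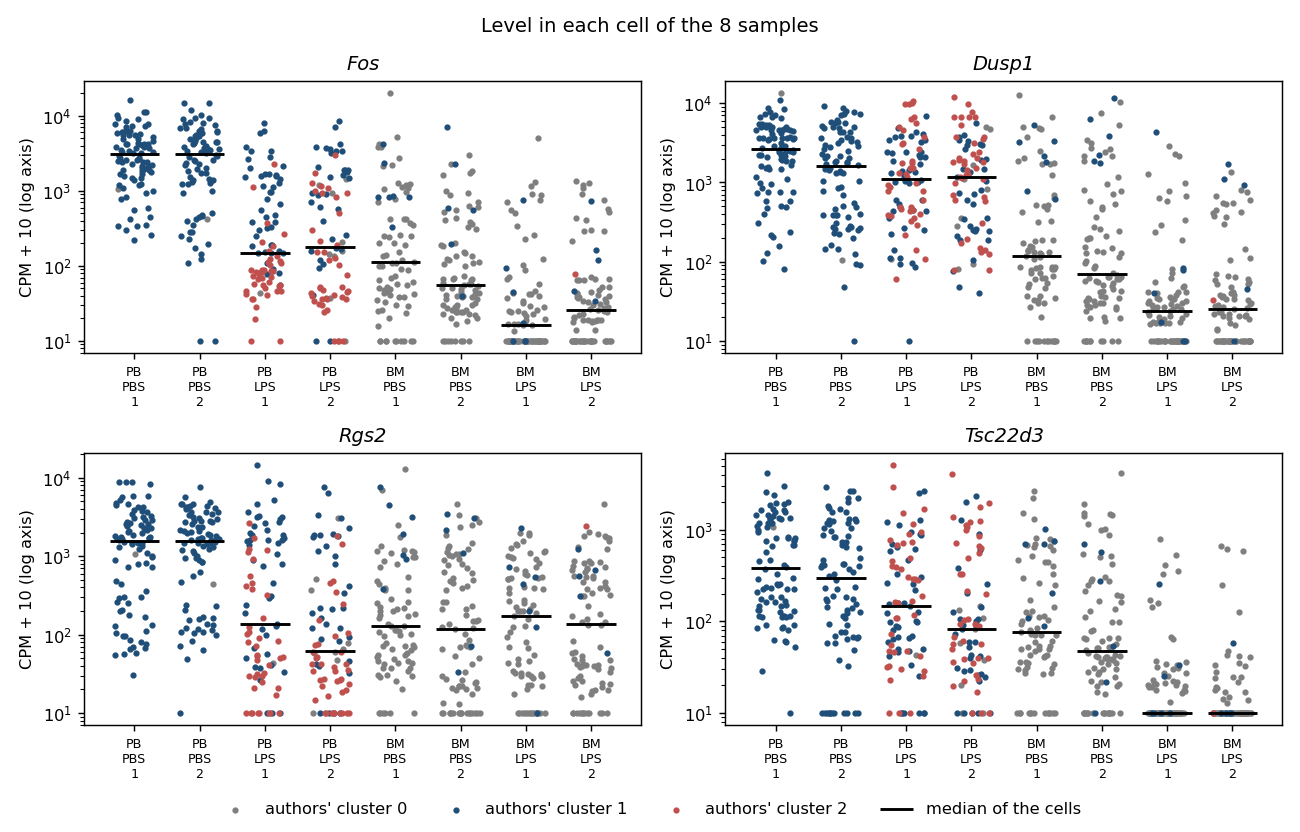
CPM + 10 of Fos, Dusp1, Rgs2 and Tsc22d3 in each cell of the 8 samples, on log axes, with points coloured by the authors' cluster and a bar at the median. In the LPS blood samples the cluster 2 cells lie low for Fos (medians of 64.8 and 41.1 CPM). For Dusp1 their medians (1065 and 1622 CPM) lie just below that of cluster 1 in sample 1 (1148 CPM) and above it in sample 2 (731 CPM).

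Within a sample the 6 genes were only loosely tied to each other. The median Spearman correlation over pairs of genes that were each found in most cells was 0.09 to 0.34 in the 8 samples, with cells of unequal depth behind it. On plates 31 and 32 it was 0.41 and 0.42. Across the 8 samples the 15 pairs had a Pearson r of log2(CPM + 1) from 0.61 to 0.99, and across the 9 plates of batch 6 from -0.01 to 0.93. Dusp1 and Tsc22d3 were the closest pair, with 0.99 over the samples and 0.93 over the plates. All points share their 4 groups, so these values describe the groups more than single cells.

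Among 2307 genes with a mean of at least 50 CPM, Tsc22d3 was nearest to Dusp1 and Dusp1 nearest to Tsc22d3. Next to Dusp1 came Ifi27l2a and Apoe, a gene that is also on the monocyte list, with r of 0.98 and 0.97. Next to Tsc22d3 came Txnip, a thioredoxin-binding protein, and again Apoe, with 0.98 and 0.98. Over the plates of batch 6 Txnip had 0.95 with Tsc22d3, Ifi27l2a had 0.72 with Dusp1, and Apoe had 0.46 with Dusp1 and 0.57 with Tsc22d3. Fos was nearest to Gmfg, Tyrobp, an adaptor of activating immune receptors, and Bid (0.98 each), with 0.07, 0.71 and 0.82 over the plates. Junb was nearest to 2810474O19Rik, Fyb and Sat1 (0.98 each), with 0.83, 0.82 and 0.56 over the plates. Rgs2 was nearest to Taf12, Arid4a and Gabarap (0.99, 0.98 and 0.98), and over the plates these had 0.27, 0.42 and -0.18. Nr4a1 was nearest to Pttg1, Ifitm2 and Cd53 (0.99, 0.99 and 0.98), with 0.78, 0.85 and 0.64.

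To place the genes among all others, the summed UMIs of the 8 samples were fitted with edgeR's quasi-likelihood model over 8478 genes, scaled by TMM, and calls were made at a Benjamini-Hochberg adjusted p of 0.05. For LPS against PBS in blood, 3.47% of all genes were called higher and 0.472% lower, and the 6 genes gave 0 and 1 (Fos). For LPS against PBS in marrow, 0.0236% were called higher and 0.0472% lower, and the genes gave 0 and 2 (Dusp1 and Tsc22d3). For blood against marrow under PBS, 1.18% were called higher and 1.43% lower, and the genes gave 3 (Fos, Junb and Dusp1) and 0. The difference of both LPS effects was called positive for 1.45% and negative for 0.0472% of genes, with 2 (Dusp1 and Tsc22d3) and 0 of the 6. Since the genes were picked with these contrasts known, nothing is read from these counts. Several of these calls were lost when a sample was left out, in part with the fold nearly as large and the SE wider. Fos in blood was -1.75 to -1.56 in these fits, with SE up to 0.50, and the difference of Dusp1 was 2.59 to 3.44 and that of Tsc22d3 at least 2.74. The call of Junb held in all 15 alternative fits. That of Fos in blood was lost without either sample of PBS blood, LPS blood or LPS marrow, and that of Fos between the tissues without either PBS blood sample. That of Dusp1 was lost in marrow without PBS blood sample 2 or LPS marrow sample 2, and between the tissues without either PBS blood sample or PBS marrow sample 2. That of Tsc22d3 in marrow was lost without either PBS blood or LPS marrow sample or PBS marrow sample 1, and that of its difference without either PBS blood sample or LPS marrow sample 2. The differences of Dusp1 and Tsc22d3 did not pass with library size alone either.

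The fit rests on a scale that differed from CPM. TMM factors were 1.35 and 1.37 in PBS blood and 0.75 and 0.69 in LPS blood, so over all genes the median LPS effect in blood was -0.11 (log2) on the TMM scale and -1.02 with library size alone. For Fos in blood the log2 fold change was -1.62 (SE 0.39) with TMM and -2.54 (SE 0.40) with library size alone, and for Rgs2 it was -0.83 (SE 0.30) and -1.73 (SE 0.32). The sign depended on the scale for Dusp1, with 0.40 (SE 0.27) against -0.52 (SE 0.28), and for Tsc22d3, with 0.35 (SE 0.40) against -0.56 (SE 0.40). Both genes were thus lower in CPM in LPS blood and above the median gene, with no direction that held on both scales. For Junb the log2 fold change was -0.08 (SE 0.25) and -0.997 (SE 0.26), near the median gene on either scale. For Nr4a1 it was 2.04 (SE 1.10) and 1.14 (SE 1.12).

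In the marrow the scale mattered less. The log2 fold change under LPS with TMM was -2.67 (SE 0.29) for Dusp1, -2.90 (SE 0.43) for Tsc22d3, -2.06 (SE 0.40) for Fos, -0.84 (SE 0.30) for Rgs2 and 0.10 (SE 0.25) for Junb, while the median gene was at 0. Without PBS marrow sample 1 Fos was -1.09 (SE 0.23), and without sample 2 it was -2.64 (SE 0.23). With library size alone they were -2.49, -2.72, -1.89, -0.66 and 0.29. No fold is given for Nr4a1 in marrow, where most samples had no UMI. Between the tissues under PBS, the log2 fold change was 2.31 (SE 0.40) for Fos, 2.17 (SE 0.26) for Junb, 1.43 (SE 0.28) for Dusp1, 1.22 (SE 0.31) for Rgs2 and 0.79 (SE 0.40) for Tsc22d3, against a median of 0.15 for all genes. Fos was 3.28 (SE 0.28) without PBS marrow sample 1 and 1.73 (SE 0.25) without sample 2.

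The LPS effect in blood minus that in marrow was 3.07 (SE 0.40) for Dusp1 and 3.25 (SE 0.57) for Tsc22d3 on the log2 scale, and 1.97 (SE 0.40) and 2.16 (SE 0.58) with library size alone. The CPM of batch 6, which are on the scale of library size alone, gave 0.55 for Dusp1 and -0.85 for Tsc22d3, so that the sign of Tsc22d3 turned with the batch. For Fos, Junb and Rgs2 the difference was 0.44 (SE 0.54), -0.19 (SE 0.35) and 0.01 (SE 0.43), beside -0.17 for the median gene. With library size alone it was -0.65, -1.28 and -1.08, beside -1.24 for the median gene. The CPM of batch 6 gave -2.79, -2.28 and -2.91 for the same genes, a larger fall in CPM in blood than in marrow. No median of all genes was taken in that batch. Without the 64 cells rich in markers of other cells, Dusp1 was 2.61 (SE 0.50) and Tsc22d3 3.16 (SE 0.57), Fos in blood was -1.72 (SE 0.42), and Fos, Junb and Dusp1 between the tissues were 2.37 (SE 0.43), 2.36 (SE 0.28) and 1.81 (SE 0.36). In that fit Fos in blood and both marrow values of Dusp1 (-2.51) and Tsc22d3 (-2.95) no longer passed the threshold.

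**Figure D3:**
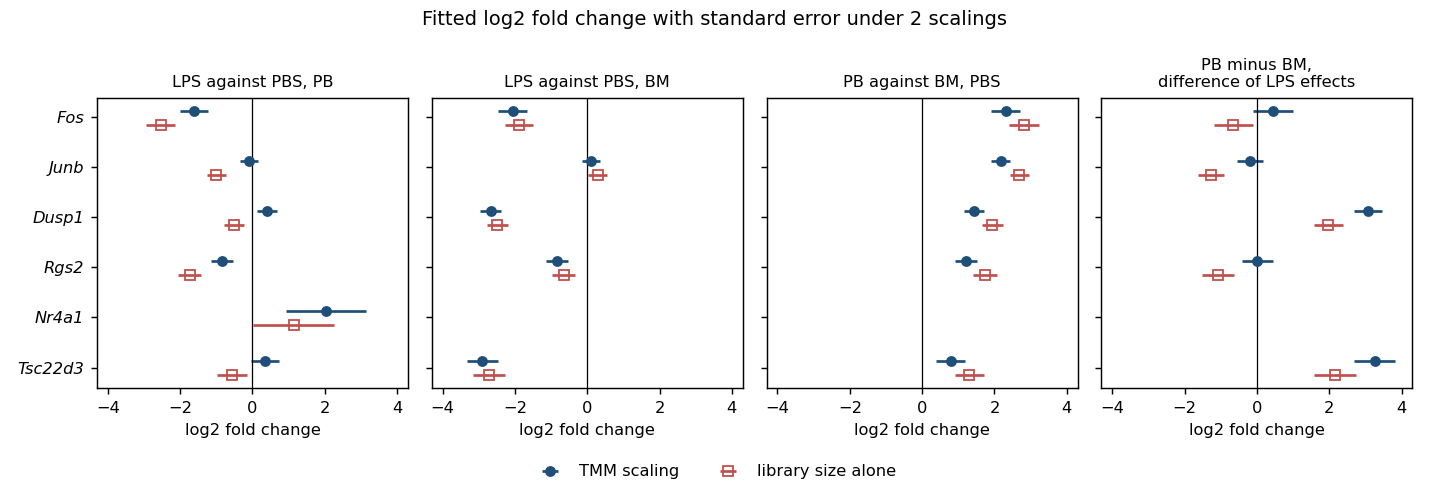
Fitted log2 fold change of each gene with its standard error in the 4 contrasts, under TMM scaling (circles) and library size alone (squares), with zero marked by a line. In blood Dusp1 and Tsc22d3 lie on either side of zero under the 2 scales (0.40 and -0.52, 0.35 and -0.56). Nr4a1 is drawn only for blood.

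Other genes of these programmes were taken from 4 lists that leave out the 6 genes. The lists were chosen with earlier results of these data known, so their counts, medians and p-values only describe these data. They hold 32 immediate early genes, 20 glucocorticoid-induced genes, 15 upstream kinases, transcription factors and G protein components, and 11 heat shock genes, of which 62 genes in all were tested. In blood, 5 of the 62 rose with LPS and 0 fell, beside 3.47% and 0.472% of all genes. With library size alone 3 of them rose and 3 other genes were called lower, Btg1 (-1.81, SE 0.38), Ier2 (-1.49, SE 0.27) and Plcb2 (-2.89, SE 0.72), with edgeR adjusted p of 0.0230, 0.0113 and 0.0460. Nfkbia, the inhibitor of NF-kB, was at 428 and 438 CPM under PBS and 2768 and 2176 CPM under LPS (log2 fold change 3.42, SE 0.23, edgeR adjusted p = 8.1e-06). Il1r2, the decoy receptor for interleukin-1, was at 333 and 489 CPM and at 1717 and 2031 CPM (3.11, SE 0.38, edgeR adjusted p = 0.000838). Among the immediate early genes Ier3 (117 and 169 against 624 and 502 CPM, log2 fold change 2.88, SE 0.36) and Gadd45b (112 and 146 against 501 and 274 CPM, 2.49, SE 0.55) rose, with edgeR adjusted p of 0.000939 and 0.0312. Anxa1, the glucocorticoid-regulated annexin, rose by 1.37 (SE 0.18, edgeR adjusted p = 0.00108) from 1689 and 1843 to 2319 and 2502 CPM.

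Of 22 immediate early genes tested in blood, 2 rose and 20 did not pass, with a median log2 fold change of 0.14 beside -0.11 for all genes. Of 18 glucocorticoid-induced genes, 3 rose (Nfkbia, Il1r2 and Anxa1) and 15 did not pass, with a median of 0.48. Whether glucocorticoids or LPS itself raised these genes was not tested. With library size alone these medians were -0.77 and -0.40, beside -1.02 for all genes. The upstream (14 tested, median -0.54) and heat shock lists (8 tested, median 0.18) gave 0 calls, with 5 and 2 genes at an unadjusted edgeR p under 0.05 and 4 and 2 calls by DESeq2. With library size alone, Gadd45b and Anxa1 did not pass (edgeR adjusted p = 0.143 for each), and Gadd45b was also lost without PBS blood sample 1 or 2, LPS blood sample 1 or the cells rich in other markers.

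In marrow, 0 of the 62 listed genes passed edgeR with LPS, although 11 had p under 0.05 before adjustment, and DESeq2 called 5. The median was 0.24 for the immediate early list, -0.79 for the glucocorticoid list, 0.01 for the upstream list and 0.31 for the heat shock list, beside 0 for all genes. In the glucocorticoid list 5 of 18 genes had a positive value.

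Between the tissues under PBS, 6 of the 22 immediate early genes were higher in blood and 0 lower. The median of the list was 1.58, with 21 of 22 genes positive, beside 0.15 for all genes. Klf2, a zinc finger factor of quiescent leukocytes, stood at 1401 and 1390 CPM in PBS blood and at 205 and 157 CPM in PBS marrow (log2 fold change 2.43, SE 0.26, edgeR adjusted p = 0.000628). Ier5 stood at 1034 and 892 against 217 and 101 CPM (2.09, SE 0.36, edgeR adjusted p = 0.0113). The mRNA-destabilising proteins Zfp36l1 (347 and 159 against 12.3 and 33.5 CPM, 2.94, SE 0.59) and Zfp36 (1037 and 877 against 298 and 276 CPM, 1.22, SE 0.25) passed with edgeR adjusted p of 0.0226 and 0.0274. Zfp36 was lost in 6 of 15 alternatives (thinned cells, either PBS blood sample, either PBS marrow sample or LPS marrow sample 1) and Zfp36l1 in 3 (thinned cells, PBS blood sample 1 or PBS marrow sample 1). Ier5 was lost without either PBS blood sample. Egr1 and Jund were the others. Under LPS Klf2 stood at 1373 and 1184 CPM in blood and at 397 and 565 CPM in marrow. Without PBS blood sample 1 or 2, or without PBS marrow sample 1, the listed calls in this contrast dropped from 8 to 3, 3 and 4.

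The glucocorticoid list went the other way in its 2 calls. Anxa1 was lower in blood (1689 and 1843 against 4924 and 6230 CPM, log2 fold change -2.18, SE 0.18, edgeR adjusted p = 5.8e-05). So was Hsd11b1, the enzyme that regenerates active glucocorticoid (51.8 and 14.8 against 270 and 179 CPM, -3.25, SE 0.61, edgeR adjusted p = 0.0174), though not without PBS blood sample 2 or PBS marrow sample 1. The median of the 18 genes was 0.41, the upstream list (14 genes, median -0.23) and the heat shock list (8 genes, median 0.14) gave 0 calls, with 1 and 3 genes at an unadjusted p under 0.05 and 1 and 2 calls by DESeq2. The summed heat shock level was looked at as a possible sign of handling, which was not measured. It was 816 and 955 CPM in PBS blood and 734 and 721 CPM in LPS blood. PBS marrow had 679 and 719 CPM and LPS marrow 936 and 669 CPM. In these samples PBS blood thus lay above LPS blood and PBS marrow without overlap. In CPM each of the 6 genes apart from Nr4a1 did so too, but the share of all genes that did was not counted. With library size alone the median gene was at -1.02 (log2) for LPS against PBS in blood. It was at 0.67 for blood against marrow under PBS. In batch 6 the heat shock level was 2145 and 1798 CPM in PBS blood and 1605 and 2062 CPM in LPS blood, which overlapped. It was 600 to 989 CPM in the marrow plates. Fos, Junb, Dusp1, Rgs2 and Tsc22d3 were lower in CPM in LPS than in PBS blood in batch 6, without overlap. How many of all genes were lower there was not counted. The part of the heat shock level in the levels of the 6 genes was not tested.

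The LPS effect itself differed between blood and marrow for 3 listed genes. Nfkbia (difference of the log2 effects 3.26, SE 0.30, edgeR adjusted p = 0.000196) stood at 258 and 258 CPM in PBS marrow and 313 and 344 CPM in LPS marrow, beside its blood values above. Il1r2 (3.25, SE 0.51, edgeR adjusted p = 0.00787) stood at 409 and 232 CPM and at 435 and 227 CPM. Anxa1 (1.36, SE 0.24, edgeR adjusted p = 0.0162) did not pass with library size alone (0.25, edgeR adjusted p = 0.595), nor did Il1r2 (2.14, edgeR adjusted p = 0.0950). Il1r2 was also lost without PBS blood sample 1, and Anxa1 without either PBS blood sample, either LPS marrow sample or the cells rich in other markers. In the glucocorticoid list 16 of 18 genes had a positive difference, with a median of 1.32 beside -0.17 for all genes, and with library size alone it was 0.21 beside -1.24. The immediate early list had a median of 0.02, with 11 of 22 positive and 0 calls (4 at an unadjusted p under 0.05, 1 by DESeq2).

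**Figure D4:**
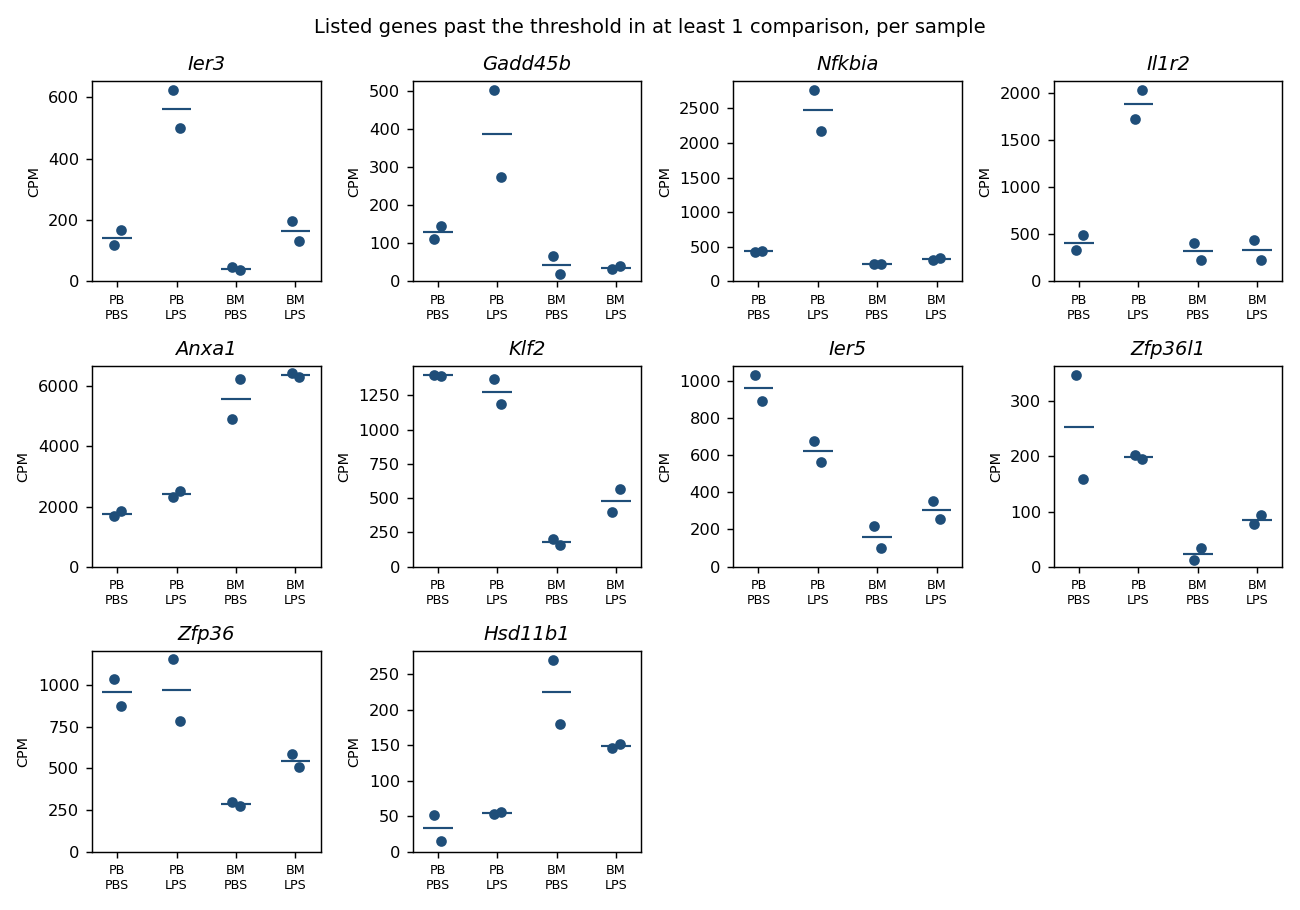
CPM of the named listed genes in the 8 samples of batch 7, with points for samples and a bar for the mean of 2. Nfkbia and Il1r2 stand out in LPS blood (2768 and 2176, 1717 and 2031 CPM). Klf2 and Ier5 are higher in blood than in marrow, and Anxa1 and Hsd11b1 are higher in marrow than in blood.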

How the data were processed

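SCRB-seq libraries of single neutrophils were used. The authors trimmed reads with Cutadapt 1.15, aligned them to mm9 with STAR 2.6.0a, removed duplicates by UMI and counted with HTSeq 0.11.2. The gene annotation is not given in the sources used here, and gene positions are from GENCODE for mm9. The deposited table holds raw UMI counts per gene and cell. The authors' annotation adds batch, plate, group, cluster and an ERCC fraction per cell, whose median was 0.63 to 0.66 in PBS-primed PB, 0.50 to 0.52 in LPS-primed PB and 0.42 to 0.48 in BM samples.

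The 711 cells of batch 7 match the 8 labelled samples by name, 2 in each of 4 groups. UMIs were summed per sample, and genes found in at least 10 cells (9919) were tested with edgeR 4.0.16 in R 4.3.3 (filterByExpr, TMM, glmQLFit, glmQLFTest, all 4 groups in 1 model, two-sided). The SE of an edgeR log2 fold change was derived from the test, as its absolute value divided by the square root of the quasi-likelihood F statistic. The common dispersion was 1.06, a wide spread that leaves little power for moderate changes. Chi-square per degree of freedom between fellow samples was 59.9 to 106. The tests were also run on simulated counts with a narrower spread than these data and larger changes than most described here. That run does not show how they perform on these data. CPM are UMIs scaled to 1000000 a sample. Shares of cells were taken after thinning each cell to 5000 UMIs, and no cell was lost. Doublets were not called, since cells were picked singly. The genes and lists were chosen with earlier results of these data known. Named beside the 6 genes are, for each list and contrast, up to 4 called genes in order of adjusted p, and for each gene the 3 most correlated ones. Egr1, Jund, Btg1, Ier2 and Plcb2 were named after their values were seen. Alternatives were DESeq2 1.42.0, other scalings, no filter, thinned cells, a replicate block, and each sample left out. Leaving out cells with over 2000 CPM of markers of other cells was added after seeing the data.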

Additional observations from a re-analysis of the deposited data

Results flagged for a closer look

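The LPS effect in blood differed from that in marrow by edgeR's test of the difference for 3 listed genes. The difference of the log2 effects was 3.26 for Nfkbia, 3.25 for Il1r2 and 1.36 for Anxa1. The lists were chosen with earlier results of these data known, so these values are a description. Among the 6 genes the difference was 3.07 for Dusp1 and 3.25 for Tsc22d3, a description too, since both were picked with this contrast known. Neither passed with library size alone (1.97 and 2.16), and in the CPM of batch 6 the difference was 0.55 for Dusp1 and, with the sign turned, -0.85 for Tsc22d3. With library size alone Il1r2 and Anxa1 did not pass either.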

How the results depend on the processing

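Counts of listed genes past the threshold stayed within 1.5 times the main count in 50 of 60 alternatives, and counts of all genes in 35 of 60. DESeq2 called more, with 13 listed genes for LPS in blood (5 by edgeR), 5 in marrow (0), 18 for blood against marrow (8) and 9 for the difference of the LPS effects (3). Over all genes it called 1057 (334 by edgeR), 196 (6), 962 (221) and 500 (127). Library size alone gave 1 listed gene and 64 genes for the difference, and 10 genes in marrow. In blood it turned the split of higher against lower calls from 294 against 40 to 140 against 268, and for blood against marrow from 100 against 121 to 213 against 84. For the difference the split went from 123 against 4 to 45 against 19. Cells thinned to 5000 UMIs gave 1 listed gene and 27 genes in marrow. Without the cells rich in other markers, marrow had 2 calls. Leaving out each sample in turn gave 146 to 400 calls in blood, 2 to 28 in marrow, 108 to 342 for blood against marrow and 80 to 168 for the difference. Listed genes then numbered 4 to 5, 0 to 0, 3 to 10 and 1 to 4. Leaving out either PBS blood sample gave the low counts in blood (159 and 146) and for blood against marrow (115 and 108), and leaving out PBS marrow sample 2 the high one in marrow. In these alternatives 0 called values of named genes changed sign. Single cells came in 2 samples a group, and the cause of the shifts was not tested.

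Whether same-numbered samples are paired is not stated in the labels. Their deviations from the group means had r of -0.02 to 0.04. With 2 samples a group and a wide spread, this cannot exclude a pairing. A fit with the replicate block called 374 genes in blood, 13 in marrow, 255 for blood against marrow and 154 for the difference, with 5, 0, 10 and 3 listed genes.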
